A study of Mus musculus with 8 samples.

Results

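The insulin-like growth factor (IGF) axis was followed through 10 mouse genes: the ligand gene Igf2, the receptor genes Igf1r, Igf2r and Insr, and the binding protein genes Igfbp2, Igfbp3, Igfbp4, Igfbp5, Igfbp6 and Igfbp7. They were chosen by name, with earlier results of these data known, and all 10 were found among the 24062 genes of the expression table and passed the filter on low values, which kept the 13210 genes that reached an FPKM of 1 in 2 or more of the 8 libraries. FPKM stands for the fragments counted per kilobase of transcript, scaled to library size, so levels of different genes can be set side by side. RNA was sequenced from embryonic stem cells (ESC) and from HC11, a mouse mammary epithelial line, in 3 states with 2 libraries per group. The ESC were of the R1 line, grown on mitotically inactive mouse embryonic fibroblasts in medium with serum, LIF and inhibitors of differentiation and replated to deplete the fibroblasts. HC11 is a clonal line descended from the mammary glands of pregnant Balb/c mice, and was used unmodified. Normal HC11 (N) grew to confluence with 10% serum, insulin at 5 µg/ml and EGF at 20 ng/ml, primed HC11 (P) were kept for 48 h without EGF in 5% serum with the same insulin and 1 µg/ml hydrocortisone, and prolactin-treated HC11 (PRL) then received 5 µg/ml prolactin for 72 h beside the insulin and hydrocortisone. Insulin at the same dose was thus present in every HC11 state, which bears on how the receptor genes can be read. P differed from N in EGF, serum, hydrocortisone and time together, and PRL from P in prolactin and time. HC11 differed from ESC in cell line and medium, including the MEK and GSK inhibitors. Within each comparison these cannot be told apart.

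IGF1 and IGF2 are secreted relatives of insulin that drive growth and survival through the IGF1 receptor, a tyrosine kinase closely related to the insulin receptor, while the IGF2 receptor, which is also the large mannose 6-phosphate receptor, takes up IGF2 for breakdown in lysosomes. Binding proteins hold the ligands in blood and tissue, prolong their life, and can block or help their access to the receptor. In the mammary gland the axis is known for duct growth and epithelial survival, and Igfbp5 is known for its marked rise when milk is no longer removed and the gland involutes.

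The starting point was a check of the labels and of depth. Library sizes recovered from the steps of the FPKM were 11938392 to 33916913 fragments, the fewest in ESC replicate 2 and the most in PRL replicate 2. They are estimates close to the summed fragments of genes (33829623 in PRL replicate 2), not counts of all mapped reads. The summed FPKM of 7 ESC markers was 5036 to 5065 in ESC and at most 0.761 in HC11. The 6 milk protein genes summed to 120 to 139 FPKM in PRL and at most 0.609 elsewhere. Most of the PRL sum was Csn2, at 128 and 111 FPKM. Only 2 of the 6 averaged 1 FPKM or more in PRL, and Csn1s1 was at 0 in both PRL libraries. Summed levels of 8 proliferation genes were 799 to 1053 in ESC, 522 to 546 in N, 62.3 to 66.7 in P and 19.7 to 19.9 in PRL. ESC replicate 1 stood apart from replicate 2: among genes averaging 1 FPKM or more in ESC, 14 of 15 fibroblast markers were at least 2-fold higher in it, with a median ratio of 6.15, against 820 of 11997 genes (6.84%) and a median of 1.105. Nothing in the labels says whether the replicates of a group were grown apart, and the spread behind each p-value may thus be technical only.

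Because the binding protein genes carried most of the differences, the 250 bases before the RefSeq start sites (GRCm38.p6) of the 3 that were called between HC11 states are shown, 5′ to 3′ on the gene's strand, with CG dinucleotides in capitals. Igfbp5 lies at chr1:72874866-72875115 on the minus strand, Igfbp2 (the first of its windows) at chr1:72824230-72824479 on the plus strand, and Igfbp3 at chr11:7213924-7214173 on the minus strand.
Igfbp5: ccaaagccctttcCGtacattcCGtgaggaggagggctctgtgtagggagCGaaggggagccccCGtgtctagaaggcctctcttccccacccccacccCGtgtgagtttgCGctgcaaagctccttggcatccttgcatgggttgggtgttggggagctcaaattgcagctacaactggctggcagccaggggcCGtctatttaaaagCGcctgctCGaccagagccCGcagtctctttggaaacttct
Igfbp2: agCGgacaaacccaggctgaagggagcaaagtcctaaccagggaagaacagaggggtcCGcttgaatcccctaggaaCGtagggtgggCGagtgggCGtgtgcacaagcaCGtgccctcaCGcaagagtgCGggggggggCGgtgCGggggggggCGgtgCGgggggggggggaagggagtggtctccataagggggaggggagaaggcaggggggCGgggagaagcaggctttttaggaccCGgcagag
Igfbp3: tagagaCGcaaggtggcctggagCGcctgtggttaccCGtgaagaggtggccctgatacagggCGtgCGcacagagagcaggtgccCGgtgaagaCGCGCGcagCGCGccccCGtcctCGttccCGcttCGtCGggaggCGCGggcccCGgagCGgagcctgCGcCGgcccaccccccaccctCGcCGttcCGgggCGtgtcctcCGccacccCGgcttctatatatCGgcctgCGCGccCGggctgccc
The stretch before Igfbp3 held 32 CG dinucleotides, that before Igfbp2 14 and that before Igfbp5 10, against a median of 6 over 32851 windows. The windows with fewer CG than Igfbp3 made up 95.4% of the set. Of the 10 genes, 9 were matched by symbol in the RefSeq set, with 13 windows of 300 bases (250 before and 50 after a start site), and Insr was not. The letters AGAACA, a hexamer bound by the glucocorticoid receptor, were found on either strand in 18.97% of all windows and in 2 of the 13, starting 206 bases before the Igfbp2 start (in lower case above) and, on the opposite strand, 85 bases before an Igf2 start. The full palindromic element of the receptor, made of that hexamer, 3 bases of any kind and its reverse complement, was in 0.00913% of windows, the STAT letters TTCNNNGAA in 8.30% and the forkhead letters TGTTTAC in 3.65%, and none of the 3 was in the 13 windows. TATAAA was in 13.6% of windows and in those of Igfbp4 and Igfbp6. A match is a description of the letters, not of binding, and a window without one says nothing of the factor.

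**Figure D1:**
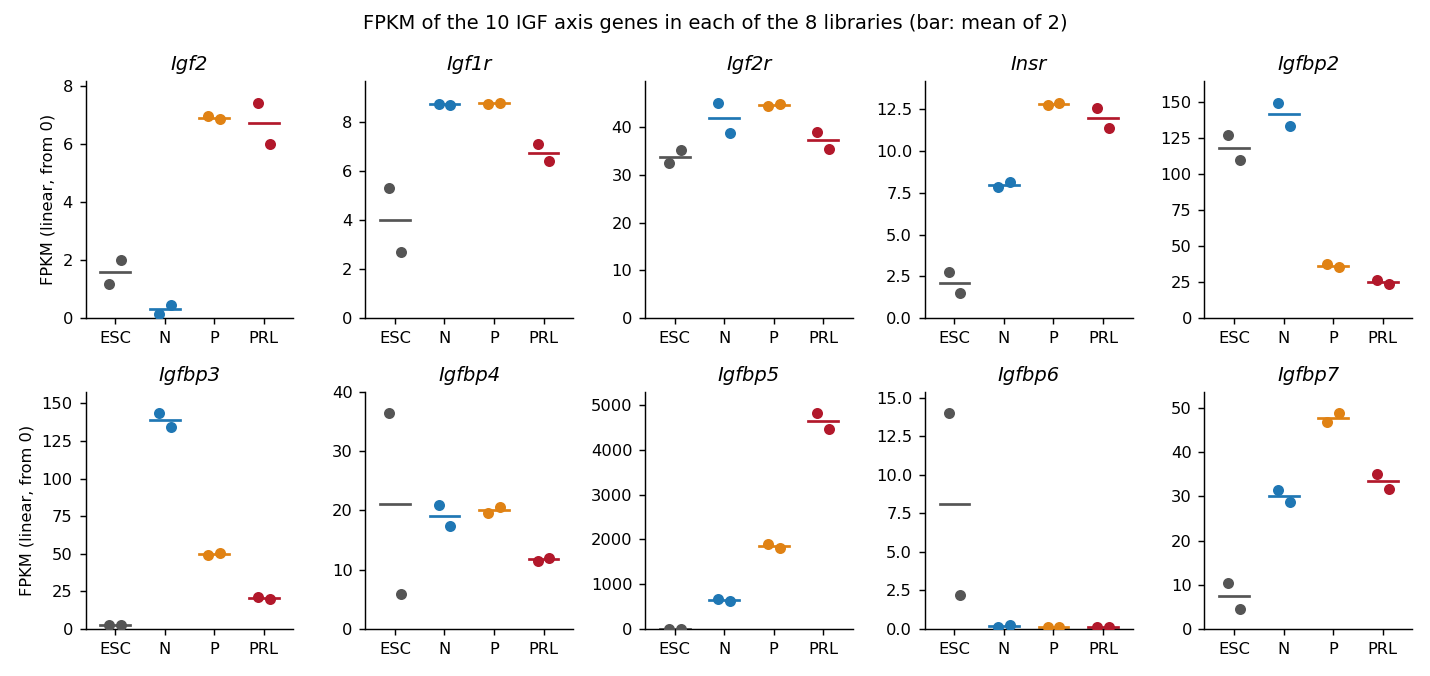
Each panel plots the FPKM (linear axis from 0) of 1 gene of the IGF axis in the 8 libraries, grouped as ESC, N, P and PRL, with points for libraries and bars for the mean of 2. Igfbp5 climbs from N to P to PRL, reaching 4818 and 4478 FPKM, while Igfbp2 and Igfbp3 step down from N, and Igf2 is near 7 FPKM in P and PRL.

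The ligand came first. Igf2, the fetal growth factor gene expressed from the paternal copy, was at 1.19 and 2.00 FPKM in ESC, 0.162 and 0.464 in N, 6.96 and 6.88 in P, and 7.44 and 6.0 in PRL. It was thus lowest in N, where 16 and 45 fragments stood behind the values, and highest in P and PRL, whose ranges overlapped. The mean in P was 22.1-fold that in N, and Igf2 rose from N to P by a log2 fold change of 2.60 ± 0.19 (SE) with an adjusted p of 0.000101 (limma on log2(FPKM + 1), Benjamini-Hochberg over all genes tested). The added 1 makes this log2 value understate the change of a gene as low as Igf2 in N. From P to PRL the difference was -0.04 with an adjusted p of 0.921. Leaving out any single N or P library ended the call from N to P, the adjusted p then being at most 0.00205.

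H19, the noncoding RNA gene that shares its enhancers with Igf2 and is expressed from the maternal copy, lies 72622 bases from it on chromosome 7 (Igf2 at chr7:142650766-142666816, minus strand, GRCm38). Its FPKM was 6.29 and 3.30 in ESC, 72.2 and 80.7 in N, 343 and 328 in P and 320 and 301 in PRL. H19 rose from N to P by 2.12 ± 0.22 on the log2 scale (limma, adjusted p = 0.000467), a call that ended when any of the 6 HC11 libraries was left out, the highest adjusted p being 0.0066. The ratio of Igf2 to H19 FPKM was 0.189 and 0.605 in ESC, 0.00224 and 0.00574 in N, 0.0203 and 0.0210 in P, and 0.0233 and 0.0200 in PRL. Both genes of the pair were therefore higher in P than in N, and the ratio was lowest in N. The antisense gene Igf2os, which overlaps Igf2, was at 0.140 FPKM or below in every library, and the library kit did not mark strand.

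The other ligand genes were at or near 0. Igf1 reached 0.226 FPKM in ESC replicate 1 and at most 0.0536 in every other library, and Ins1 and Ins2 were listed at 0 throughout. Igf2 was therefore the ligand gene with the highest level in each of the 8 libraries. The 3 genes for proteins that bind Igf2 messenger RNA, Igf2bp1, Igf2bp2 and Igf2bp3, were at 22.2 to 61.0 FPKM in the ESC libraries and at 0.967 FPKM or below in every HC11 library. They passed the filter through ESC alone, where they are high, so these levels are given without a test.

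Of the receptor genes, Insr changed most. Insr, the insulin receptor gene, was at 2.76 and 1.49 FPKM in ESC, 7.86 and 8.13 in N, 12.8 and 12.9 in P, and 12.6 and 11.4 in PRL. The ESC libraries were lowest and N lay between them and the P and PRL libraries, without overlap. Insr rose from ESC to N by 1.56 ± 0.18 on the log2 scale (limma adjusted p = 0.000235), although leaving out any of the 6 HC11 libraries ended this call (highest adjusted p 0.00297). From N to P the difference was 0.62 ± 0.18, below the fold of 2 that was required, with an adjusted p of 0.0315. The spread in that fit is shared with ESC. In a fit of the 6 HC11 libraries alone, chosen after seeing the data, the adjusted p was 4.77e-05.

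Igf1r, the gene of the signalling IGF receptor, was at 5.31 and 2.70 FPKM in ESC, 8.72 and 8.70 in N, 8.75 and 8.79 in P, and 7.09 and 6.41 in PRL. N and P were nearly alike and PRL was lower than both, without overlap. From P to PRL the difference was -0.34 ± 0.23 (limma adjusted p = 0.298, and 0.00259 in the limma fit of the HC11 libraries alone). The median over all genes tested was -0.15 for that pair. From ESC to N the Igf1r difference was 1.01 ± 0.23 with a limma adjusted p of 0.00565, above the threshold of 0.001. Quantile normalization brought it to 1.09 and 0.00091.

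Set side by side within a library, the 2 related receptors exchanged places. The ratio of Igf1r to Insr FPKM was 1.92 and 1.82 in ESC, 1.11 and 1.07 in N, 0.685 and 0.681 in P, and 0.562 and 0.564 in PRL. The groups did not overlap, and Insr was the higher of the 2 in the 4 P and PRL libraries. As a ratio within a library, it does not depend on depth or scaling. It is given as a description and was not tested.

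Igf2r, the gene of the clearance receptor, was the most abundant of the 3 receptor genes in every library. It was at 32.5 and 35.2 FPKM in ESC, 45.1 and 38.7 in N, 44.4 and 44.9 in P, and 39.1 and 35.4 in PRL. Neighbours in the order of its group means (P, N, PRL, ESC) had limma adjusted p-values of 0.482, 0.19 and 0.227, and of these pairs PRL and ESC did not overlap. The ends of the order, P and ESC, did not overlap and differed by 0.39 ± 0.09 on the log2 scale (limma adjusted p = 0.00713, not called). In the FPKM as given, P also lay above PRL without overlap (-0.26 from P to PRL, limma adjusted p = 0.0781). The median over all genes tested was -0.15 for that pair. After median ratio scaling (factors of 1.04 and 1.05 in P, 0.905 and 0.899 in PRL) the Igf2r ranges of P and PRL overlap. Airn, the antisense noncoding RNA gene that overlaps Igf2r and silences the paternal copy in mouse tissues, was at 0.124 and 0 FPKM in ESC, 1.84 and 1.48 in N, 3.75 and 3.98 in P, and 1.5 and 1.7 in PRL. Without strand, reads of the overlap cannot be told apart, but Airn was far below Igf2r in each library.

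The binding proteins showed the widest range. Igfbp5 encodes a binding protein that attaches to the extracellular matrix. It was at 0.0465 and 0 FPKM in ESC, 658 and 622 in N, 1894 and 1815 in P, and 4818 and 4478 in PRL. In ESC the values stood for 4 and 0 fragments, and in PRL for 738948 and 889021. Each HC11 state lay above the one before it without overlap, and only 4 and 5 of the 24062 genes had a higher FPKM than Igfbp5 in the PRL libraries, against 15 and 16 in P and 117 and 124 in N. Igfbp5 rose from N to P by 1.53 ± 0.07 on the log2 scale (limma adjusted p = 1.91e-05), a 2.90-fold difference of means, and was called with any 1 library left out. From P to PRL it rose by 1.32 ± 0.07 (limma adjusted p = 0.000197), or 2.51-fold. That second call ended when any of the 6 HC11 libraries was left out (highest adjusted p 0.00609), and held in the fit of the HC11 libraries alone (1.95e-06). Quantile normalization, which sets the distributions equal, brought it to 0.80, under the fold of 2. With a pseudocount of 0.1 in place of 1 it was 1.325 and not called (limma adjusted p = 0.00251).

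Igfbp3, whose product is the main IGF carrier of serum, ran the other way within HC11. It was at 2.87 and 2.44 FPKM in ESC, 143 and 135 in N, 49.2 and 50.2 in P, and 21.3 and 19.6 in PRL. N was highest, each later state was lower without overlap, and ESC was lowest. On the log2 scale Igfbp3 rose from ESC to N by 5.26 ± 0.08 (limma adjusted p = 4.43e-08), then fell by 1.46 ± 0.08 from N to P (4.04e-05) and fell by 1.24 ± 0.08 from P to PRL (0.000363). The fall from N to P was no longer called when N replicate 1 or either P library was left out (highest adjusted p 0.00117), and that from P to PRL when any of the 6 HC11 libraries was (0.00899). In the fit of the HC11 libraries alone both were called, with adjusted p-values of 1.08e-07 and 1.43e-06. Its neighbour Igfbp1, 3539 bases away, was at 0.0447 FPKM or below in every library.

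Igfbp2, whose product binds IGF2 with high affinity, was at 127 and 110 FPKM in ESC, 149 and 133 in N, 37.4 and 35.3 in P, and 26.4 and 23.7 in PRL. ESC and N were high, and P and PRL low. Igfbp2 fell by 1.93 ± 0.10 on the log2 scale from N to P (limma adjusted p = 3.06e-05) and was called with any 1 library left out. From P to PRL the difference was -0.52 (adjusted p = 0.0102) and did not reach a fold of 2. Igfbp2 (chr1:72824503-72852474, plus strand) and Igfbp5 (chr1:72857932-72874884, minus strand) lie tail to tail, 5457 bases apart, with 0 protein-coding genes between them in GENCODE, and in the P and PRL libraries these neighbours lay on opposite sides of their N levels. Of the 8 proliferation markers, 8 fell from N to P (5 to 8 when a library was left out) and 6 from P to PRL (0 to 7), beside 4.1% and 1.44% of all genes, and their part in the Igfbp2 and Igfbp3 levels was not tested.

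Igfbp7, a relative that binds IGFs weakly, was at 10.5 and 4.49 FPKM in ESC, 31.5 and 28.7 in N, 46.9 and 48.8 in P, and 35.1 and 31.8 in PRL. It rose from ESC to N by 1.97 ± 0.30 (limma adjusted p = 0.000916), a call that ended when any of the 6 HC11 libraries was left out (highest adjusted p 0.00875). From N to P the difference was 0.65 ± 0.30 with an adjusted p of 0.125, and 3.61e-05 in the fit of the HC11 libraries alone. P was the highest group without overlap, and the fibroblast marker list was highest there too, at 1506 to 1600 summed FPKM in P against 707 to 713 in N and 502 to 553 in PRL. Postn, at 1175 and 1074 FPKM in P, made up most of that sum, whereas Col1a1 was at 1.76 and 1.48. Of the 17 listed genes, limma called 3 up from N to P (Lum, Dcn and Postn) and 0 down, beside 4.54% and 4.1% of all genes. Lum, at 0 in N, passed the filter through P and PRL alone. At an unadjusted p under 0.05, 4 of the 17 were higher and 4 lower in P than in N (limma, list median -0.0012). The share of all genes at that threshold was not computed. The part of these genes in the Igfbp7 levels was not tested. The last bases of Igfbp7 overlap the convergent gene Polr2b, which was at 33.8 and 33.4 FPKM in N and 25.2 and 24.1 in P.

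Igfbp4 and Igfbp6 were set apart by the ESC replicates. Igfbp4, whose product is a substrate of the protease PAPP-A, was at 36.4 FPKM in ESC replicate 1 and 5.88 in replicate 2, and Igfbp6, whose product prefers IGF2, was at 14.0 and 2.21. In HC11, Igfbp4 was at 20.9 and 17.3 FPKM in N, 19.6 and 20.5 in P, and 11.5 and 12 in PRL, while Igfbp6 was at 0.237 FPKM or below, from 3 to 7 fragments. PRL was lower than N and P in Igfbp4 without overlap, by -0.72 ± 0.68 from P (limma adjusted p = 0.461; 0.000121 in the fit of the HC11 libraries alone). The first fit shares 1 estimate of the spread with the ESC libraries.

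**Figure D2:**
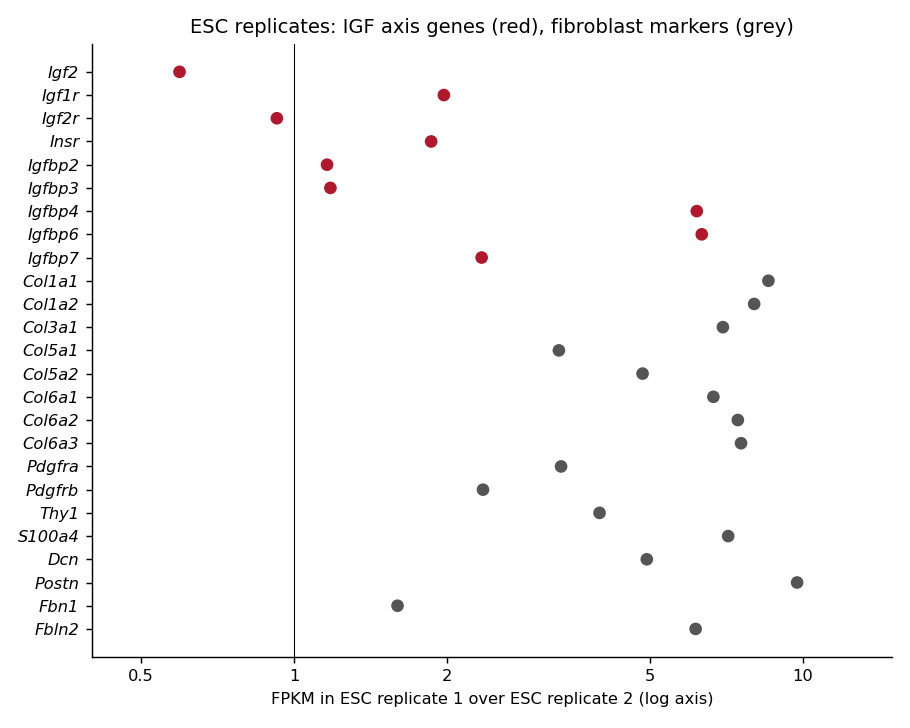
Ratio of FPKM in ESC replicate 1 to that in ESC replicate 2 (log axis) for 9 genes of the IGF axis (red) and the fibroblast markers above 0 in both replicates (grey). Igfbp4 and Igfbp6, at 6.19 and 6.33, lie among the fibroblast markers, of which Col1a1 is at 8.56, whereas Igfbp2, Igfbp3 and Igf2r lie near 1.

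The ratio between ESC replicates 1 and 2 was 6.19 for Igfbp4 and 6.33 for Igfbp6, beside 8.56 for the fibroblast collagen gene Col1a1. It was 2.34 for Igfbp7, 1.97 for Igf1r and 1.86 for Insr, and it was 1.16 for Igfbp2, 1.18 for Igfbp3, 0.924 for Igf2r and 0.595 for Igf2. The genes of the axis thus differed in how far they followed the markers. Summed fibroblast markers were 340 FPKM in replicate 1 and 53.2 in replicate 2, with Lum at 0 in both. In bulk RNA more cells of a type and more RNA per cell cannot be told apart, and the part of feeder cells in the ESC levels was not tested. Without ESC replicate 1, the log2 fold changes from ESC to N were -1.20 for Igf2, 1.39 for Igf1r and 1.54 for Igfbp4. With both replicates they were -0.97, 1.01 and 0.32. Without ESC replicate 2 the Igfbp4 value was -0.90, of the opposite sign. Such a fit has 1 ESC library and no measure of the ESC spread, so its calls are not read as results.

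Summed over the 6 genes, binding protein FPKM was 191 and 125 in ESC, 1004 and 936 in N, 2047 and 1970 in P, and 4912 and 4565 in PRL. Without Igfbp5 the order was another: 191 and 125 in ESC, 345 and 314 in N, 153 and 155 in P, and 94.5 and 87.3 in PRL. Igfbp5 made up 65.6% and 66.5% of the sum in N, 92.5% and 92.1% in P, and 98.1% in both PRL libraries. In ESC the largest share was that of Igfbp2, at 66.6% and 87.9%. Together the 10 genes took 0.0667% and 0.0541% of the recovered library size in ESC and 2.89% and 2.69% in PRL.

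**Figure D3:**
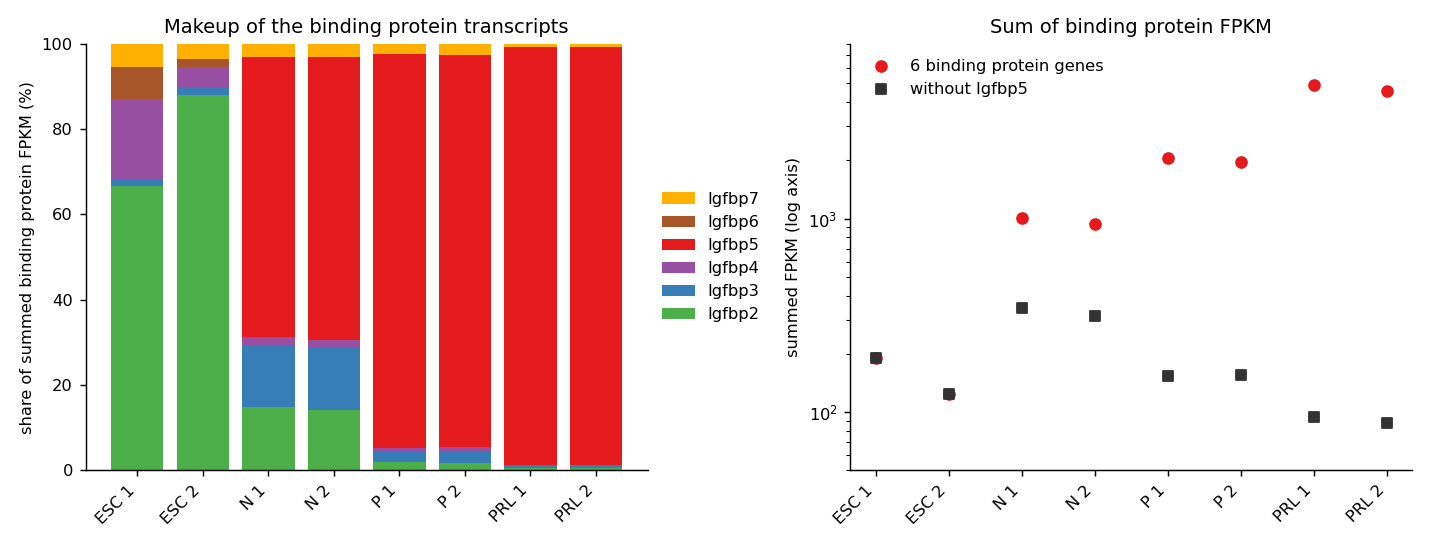
Left, share of each binding protein gene in the summed FPKM of the 6 genes (%, stacked bars) in each library, and right, the sum itself with and without Igfbp5 (log axis). Igfbp2 has the largest share in ESC and Igfbp5 in HC11, reaching 98.1% in PRL, while the sum without Igfbp5 goes down from N to PRL.

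Igfbp5 passed the filter through HC11 alone and Igfbp6 through ESC alone, so a difference from ESC was built into these 2. Counted over the 10 genes, with a fold of at least 2 and an adjusted p under 0.001 in limma, 4 were called from ESC to N (Insr, Igfbp3, Igfbp5 and Igfbp7, all higher in N) where 36.3% of all genes tested were called (15.6% up and 20.7% down). From N to P 4 were called, Igf2 and Igfbp5 up and Igfbp2 and Igfbp3 down, against 8.64% of all genes (4.54% up and 4.1% down). From P to PRL 2 were called, Igfbp5 up and Igfbp3 down, against 2.13% of all genes (0.689% up and 1.44% down). As the 10 genes were chosen with earlier results of these data known, a share above the background is no result about the family. The shares among the 10 were near the background for ESC and N and above it within HC11. Both calls from P to PRL, however, ended in limma when any of the 6 HC11 libraries was left out.

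From N to PRL the genes called were those from N to P (13.5% of all genes, 5.47% up and 8% down), with log2 fold changes of 2.56 for Igf2, -2.45 for Igfbp2, -2.71 for Igfbp3 and 2.86 for Igfbp5. Against ESC, 6 were called in P (44.9% of all genes, 20.6% up and 24.3% down) and 6 in PRL (45.2%, 17.3% up and 28% down), with Igf2, Insr, Igfbp3, Igfbp5 and Igfbp7 higher and Igfbp2 lower in both. Of these, the calls of Igf2 and Igfbp7 in P ended without either P library, that of Igf2 in PRL without either PRL library, and that of Igfbp7 in PRL when any of the 6 HC11 libraries was left out. A fit without ESC replicate 1 has 1 ESC library and no measure of the ESC spread, so calls added there are not read as results. Igf2 was thus lower in N than in ESC (difference -0.97, limma adjusted p = 0.00292, not called) but called higher in P and PRL. These comparisons share libraries and are not independent. The median log2 fold change of all genes tested was -0.15 from P to PRL and moved to 0.00 with median ratio scaling. None of the members reversed its called direction under that scaling.

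**Figure D4:**
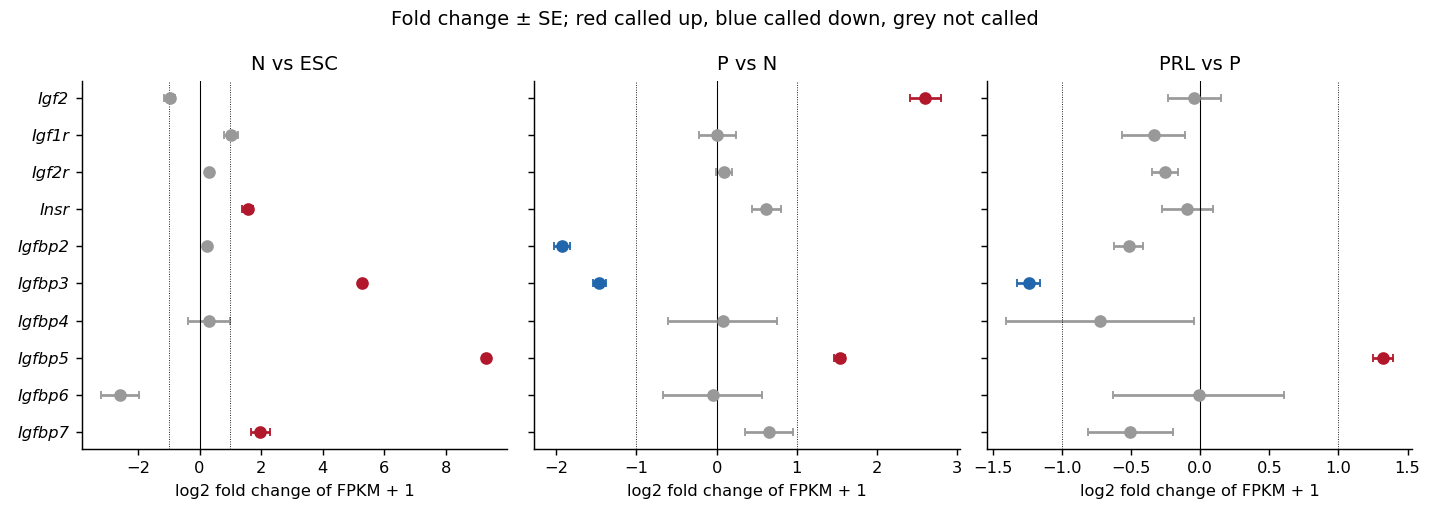
Log2 fold change of FPKM + 1 with its standard error (limma, 2 libraries per group) for the 10 genes from ESC to N, N to P and P to PRL, on axes of different width, with dotted lines at a fold of 2. Igfbp5 is called up from N to P and from P to PRL, and its difference from ESC was built in by the filter. Igfbp3 is called up from ESC to N and down in the other 2.

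Around the receptors, the signalling genes mostly did not pass the test. Of 31 tested genes of the insulin and IGF signalling core, 2 were called from N to P, both higher in P (beside 4.54% of all genes), with a list median of 0.21 beside 0.02 for all genes. Pik3r1, the main regulatory subunit of PI 3-kinase, rose from 11.1 and 12.05 FPKM in N to a mean of 65.0 in P (log2 fold change 2.39 ± 0.18, limma adjusted p = 0.000114), and Foxo3, a transcription factor held back by AKT, rose by 1.35 ± 0.10. Both calls ended when any single N or P library was left out. From P to PRL 1 rose (beside 0.689% of all genes), the median being -0.17 beside -0.15 for all genes. It was Eif4ebp1, an inhibitor of translation controlled by mTORC1, at +1.21 ± 0.07. Pik3r3 of the same list differed by -1.26 ± 0.13 and was not called (limma adjusted p = 0.00108). At an unadjusted p under 0.05, 3 of the 31 were higher and 11 lower in limma. The share of all genes at that threshold was not computed. From ESC to N 6 rose and 5 fell, beside 15.6% and 20.7% of all genes, and 2 to 7 rose and 4 or 5 fell when a library was left out. Among those that rose was Irs1, a docking protein of the receptors, at 1.68 and 0.219 FPKM in ESC and 7.67 and 7.19 in N. It passed the filter through HC11, where it is high, so no test is given. The ESC to N counts of this and the following lists include other such genes. Enpp1 and Grb14 passed through HC11 and Grb10 through ESC, and for these a difference was partly built in.

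Of 16 genes that restrain this signalling, 2 rose and 1 fell from N to P, beside 4.54% and 4.1% of all genes (list median -0.02). Enpp1, a membrane enzyme that inhibits the insulin receptor, was at 10.04 and 10.7 FPKM in N and rose by 2.23 ± 0.09 (limma adjusted p = 1.53e-05). Pik3ip1, an inhibitor of PI 3-kinase, rose by 1.35 ± 0.08, and Socs3, a feedback inhibitor of cytokine and insulin receptor signalling, fell by 1.65 ± 0.11. The calls of Pik3ip1 and Socs3, but not that of Enpp1, ended when any single N or P library was left out. From P to PRL 2 rose and 0 fell, beside 0.689% and 1.44% of all genes (list median -0.11 beside -0.15 for all genes). The 2 were Trib3, an AKT-binding pseudokinase, at +2.44 ± 0.14, and Ddit4, an inhibitor of mTORC1, at +1.26 ± 0.10. In limma 5 of the 16 were higher and 5 lower at an unadjusted p under 0.05. The share of all genes at that threshold was not computed. From ESC to N 7 rose and 2 fell, beside 15.6% and 20.7% of all genes, but with a library left out 4 to 7 rose and 0 or 1 fell. The P to PRL calls of Trib3, Ddit4 and Eif4ebp1 all ended when any of the 6 HC11 libraries was left out, the highest adjusted p being 0.011.

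Of 7 tested genes of binding protein proteolysis, 1 rose from N to P (beside 4.54% of all genes, list median -0.13) and 0 were called by limma from P to PRL (median 0.11, with 2 at an unadjusted p under 0.05). It was Ctsd, the lysosomal protease cathepsin D, which can degrade binding proteins, at 996 and 972 FPKM in N and a mean of 5225 in P (log2 fold change 2.41 ± 0.07, limma adjusted p = 3.75e-06). Pappa, the gene of the protease that cleaves the IGFBP4 protein, did not exceed 1.22 FPKM in any library. Of 10 matrix and cell surface partners, Spp1, or osteopontin, rose from N to P by 2.85 ± 0.13 and Fn1, or fibronectin, fell by 2.21 ± 0.12 (list median 0.14), and 0 were called by limma from P to PRL (median -0.46, with 3 higher and 5 lower at an unadjusted p under 0.05). Of 5 genes of lysosomal sorting, most of them of the mannose 6-phosphate route, Sort1, a sorting receptor that does not use that tag, rose by 1.94 ± 0.14 and Gnptg, a subunit of the enzyme that makes the mannose 6-phosphate tag, by 1.30 ± 0.08 from N to P (list median -0.03), and 0 were called by limma from P to PRL (median 0.00, with 1 at an unadjusted p under 0.05). The Sort1 call ended when any single N or P library was left out, and that of Gnptg without N replicate 1 or either P library. The counts of these 3 lists at an unadjusted p under 0.05 have no share of all genes beside them, as it was not computed. From ESC to N, where 15.6% of all genes were called up and 20.7% down, 3 proteolysis genes rose and 1 fell (2 to 5 and 0 or 1 with a library left out), 7 partners rose and 1 fell (5 to 7 and 1), and of the lysosomal sorting genes only Gnptg was called, lower in N.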

How the data were processed

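The deposited table held FPKM per gene, computed by the authors from paired-end reads of ribosomal RNA-depleted, oligo(dT)-selected RNA, aligned with TopHat 2.1.0 to GRCm38/mm10 and counted with featureCounts (Subread 1.5.0); the annotation and the strand setting are not given in the sources used here. Tables of the authors' own comparisons (group means, fold changes, p-values) were not used. Fragments behind the FPKM were recovered from their steps (16933 of 16933 genes above 0 in at least 3 libraries came out whole within 0.01 fragments) and give the depths; no count test was run. Genes that reached 1 FPKM in 2 or more libraries were tested on log2(FPKM + 1) with limma 3.58.1 (trend and robust options, 4 groups in 1 fit, 4 residual degrees of freedom), with Benjamini-Hochberg adjustment over 13210 genes. Calls needed a fold of at least 2 and an adjusted p under 0.001. Shares of all genes were computed for calls only, so counts at an unadjusted p under 0.05 have no background. Alternatives were the pseudocount, filter, scaling, replicate block, array weights, p threshold, 2-group fits and leaving out each library; the fit of 6 HC11 libraries was chosen after seeing the data. The 10 members and the pathway lists were chosen with earlier results of these data known. Named list genes are up to 4 called per list and comparison with the largest change and up to 2 others with the highest mean FPKM, of which only some are described. Positions come from GENCODE vM21 (GRCm38), and promoters from RefSeq. Protein sequences were not analysed here.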

Additional observations from a re-analysis of the deposited data

How the results depend on the processing

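The direction of every called log2 fold change of the 10 genes stayed the same under every alternative run. The number of genes called from P to PRL (2) became 1 with a pseudocount of 0.1 and 1 with quantile normalization, the lost call being that of Igfbp5. It became 1 with the replicate block, the lost call being that of Igfbp3. The numbers called in the 2-group fits were 2 for N against ESC, 3 for P against ESC and 3 for PRL against ESC. Calls of Igf2 in P and PRL against ESC ended with a pseudocount of 0.1 (adjusted p = 0.0023 and 0.00258) and array weights (0.00144 and 0.00177). Those of Igfbp7 ended in N against ESC with pseudocounts of 0.1 and 0.5 (0.00148 and 0.00106) and no filter (0.00216), and in PRL against ESC with no filter (0.00136). Leaving out each library gave 2 to 7 from ESC to N, 2 to 4 from N to P, 0 to 2 from P to PRL, 3 to 4 from N to PRL, 4 to 8 for P against ESC and 4 to 7 for PRL against ESC; a group left with 1 library was assumed to vary like the others. With fewer libraries the fit has fewer degrees of freedom; other causes were not tested. Same-numbered replicates did not deviate together (correlations of -0.0275 to 0.0824), so the numbers are not read as pairs; with the block, Igfbp3 from P to PRL (adjusted p = 0.00114) and Igfbp7 from ESC to N (0.00101) were not called, and no other call of the 10 genes changed. Median ratio scaling put the mean binding protein sum at 1923 FPKM in P and 5253 in PRL. Depth limits Igf2 in N, Igfbp6 in HC11 and Igfbp5 in ESC, which rest on few fragments.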

Other observations

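Genes with the profile most like that of each member were sought among tested genes with a group mean of at least 10 FPKM, by the root mean square difference of mean-centred log2(FPKM + 1) over the 8 libraries, 2 of each group. For Igfbp5 the nearest was Cbr2, a carbonyl reductase, at 0.643, followed by Wfdc18 at 0.928 and Slpi, a secreted protease inhibitor, at 1.099. All 3 had an ESC mean of 0.785 FPKM or below. Their means in N, P and PRL were 353, 1354 and 2660 for Cbr2, 316, 5473 and 4553 for Wfdc18, and 1675, 2415 and 1667 for Slpi. Only Cbr2 thus rose at both HC11 steps as Igfbp5 did. Igfbp3 had a closer match in Lypd3 at 0.159, then Hey1, a Notch target gene, at 0.217 and Anxa8 at 0.242. The profile of Igfbp2 was nearest to that of the tubulin gene Tuba1a at 0.129, then Suv39h1, a histone methyltransferase, at 0.161. For Insr the nearest was Nr1d2, a nuclear receptor of the circadian clock, at 0.066, and for Igf2 it was Ldlrad3 at 0.240. Igfbp6 was nearest to Loxl1, a matrix crosslinking enzyme, at 0.191, and Igfbp4 to Col4a1, a basement membrane collagen gene, at 0.331. These are descriptions of likeness over 8 libraries that share 4 groups.

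Igfals, which encodes the acid-labile partner of the serum IGF complex, and Igfbpl1 were the other family genes that passed the filter, through ESC alone. Igfals was at 4.44 and 5.24 FPKM in ESC and at 0.140 or below in HC11, and Igfbpl1 was at 1.87 and 1.47 in ESC and at 0.028 or below in HC11. Since the filter fixes this direction, no test is given.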
